A study of Mus musculus with 2 samples.

Results

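The 10 genes described here encode enzymes that make serine, move one-carbon units on folate, or make proline: Phgdh, Psat1, Psph, Shmt1, Shmt2, Mthfd1, Mthfd2, Mthfd1l, Aldh18a1 and Pycr1. They were taken by symbol from tables of 23282 gene rows, and each symbol had 1 row in both tables. The 2 libraries, 1 per group, came from 3T3-L1, a line of mouse fibroblasts widely used as preadipocytes because it can form fat cells. An siRNA against Pink1, whose kinase product flags damaged mitochondria for degradation, was given to the cells of the first group, and those of the second received a control siRNA. No other treatment, allele, time point or day of differentiation was given in the sources used here. RNA was extracted with Trizol and sequenced from the 3′ ends of transcripts with a QuantSeq kit.

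Serine is made from a glycolytic intermediate in 3 steps, and the folate enzymes then pass its side-chain carbon on for the synthesis of purines, thymidylate and methionine. The folate steps run in both compartments, with Shmt2, Mthfd2 and Mthfd1l in mitochondria and Shmt1 and Mthfd1 in the cytosol, while proline synthesis from glutamate starts in mitochondria with Aldh18a1. Many of these genes are targets of the transcription factor ATF4 and are known to be induced when mitochondria are impaired, which is why they bear on a knockdown of a mitochondrial quality-control kinase.

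All 10 genes counted as measured, meaning that their counts summed to at least 40 over the 2 libraries, and none differed by 2-fold. The ratios of Pink1 siRNA over control siRNA ran between 0.615 for Shmt1 and 1.42 for Aldh18a1. The serine genes and Aldh18a1 had ratios above 1, and 4 of the 5 one-carbon genes had ratios below 1. The rule of size asked for a ratio of at least 2 either way and a 95% counting interval that leaves out 1. It took 1.69% of the 11660 measured genes as higher and 2.39% as lower, and 0 of the 10 enzymes in either direction. The median log2 ratio of the 10 was 0.03, against 0.00 for all measured genes. With 1 library per group no difference has a replicate check, no p-value was computed, and the intervals cover counting error only.

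**Figure D1:**
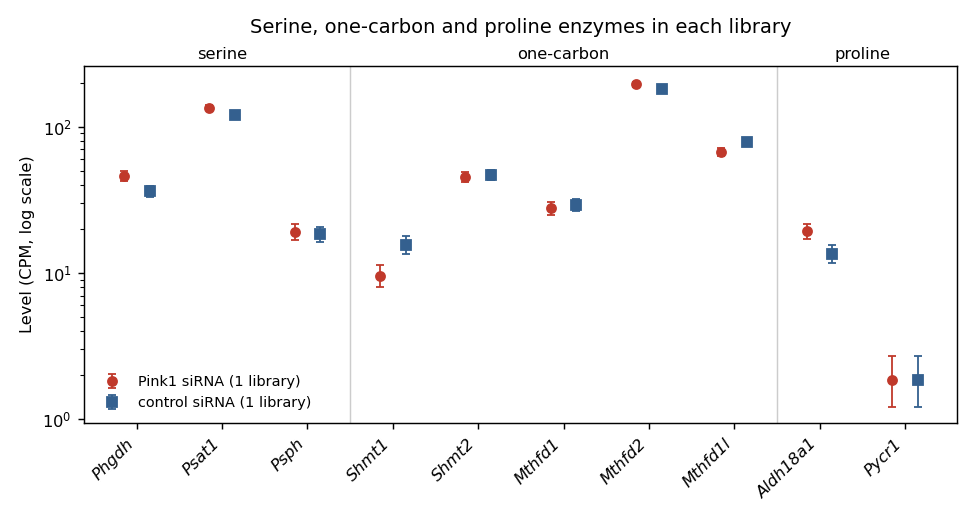
Level of each of the 10 genes in the Pink1 siRNA library (red circles) and the control siRNA library (blue squares), in CPM (counts scaled to 1000000 per library) on a log axis, with exact 95% Poisson intervals. The symbols of a pair lie close together for most genes, with Shmt1 (9.57 against 15.6 CPM) the pair furthest apart.

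The Pink1 siRNA library held 14214768 counts and the control siRNA library 13803174. Pink1, the siRNA target, had 351 counts in the Pink1 siRNA library against 511 in the control siRNA library, 25.1 against 36.5 CPM (ratio 0.687, counting interval 0.598 to 0.788), so the direction goes with the labels and most of the transcript was still present. The labels call the cells adipocytes, and 12 of 13 adipocyte markers were measured, with Lep at 0 in both libraries. They summed to 2857 CPM in the Pink1 siRNA library and 2667 CPM in the control siRNA library. These sums rest largely on Fabp4 (1196 against 1047 CPM) and Lpl (815 against 817 CPM). Single markers went both ways, with 6 ratios above 1 and 6 below. Retn was at 1.49 and Cd36 at 1.35, while Plin1 was at 0.607 and Slc2a4 at 0.510. Preadipocyte and fibroblast markers (7 of 8 measured) summed to 20883 CPM in the Pink1 siRNA library and 18672 CPM in the control siRNA library. These sums rest largely on Dlk1 (9329 against 8326 CPM), Col3a1 (6379 against 5841 CPM) and Col1a1 (4564 against 3972 CPM). All 7 ratios were above 1, beside 51.1% of all measured genes. Of their counting intervals 5 lay above 1 and 0 below, beside 26.2% and 24.9%, and 0 of the 7 passed the rule of size. Both libraries thus held transcripts of both states. Macrophage markers summed to 4.14 CPM in the Pink1 siRNA library and 5.50 CPM in the control siRNA library, with Adgre1 and Itgam at 0 in both. Endothelial markers summed to 0.50 CPM in the Pink1 siRNA library and 0.571 CPM in the control siRNA library, with 4 of 5 at 0 in both. In bulk RNA, fewer cells of a type and less RNA per cell cannot be told apart.

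The 3 serine synthesis genes had ratios above 1, by small amounts. Phgdh, the dehydrogenase of the first step, lies on chromosome 3 from 98313171 to 98339969 (mm10). It had 647 counts in the Pink1 siRNA library and 508 in the control siRNA library, 46.2 against 36.3 CPM. This gives a ratio of 1.27 (counting interval 1.13 to 1.43). Of the 583 genes in the same twentieth of mean level, 43 had a log2 ratio as high as or higher than that of Phgdh, so a difference of this size was not rare between these libraries.

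Psat1, the aminotransferase of the second step, lies on chromosome 19 from 15905123 to 15925059. It had 1892 counts in the Pink1 siRNA library and 1691 in the control siRNA library, or 135 against 121 CPM, with a ratio of 1.12 (1.05 to 1.20). Psph, the phosphatase of the last step, lies on chromosome 5 from 129765558 to 129787443 and had 268 counts in the Pink1 siRNA library and 257 in the control siRNA library, with a ratio of 1.04 and an interval of 0.876 to 1.24 that holds 1. It shares 88 bases at its 5′ end with the chaperonin gene Cct6a, which had 2733 counts in the Pink1 siRNA library and 2683 in the control siRNA library. Summed over the 3 genes, the level was 200 CPM in the Pink1 siRNA library and 175 CPM in the control siRNA library, a ratio of 1.14 (1.08 to 1.21). Psat1 gave 67.4% of these reads in the Pink1 siRNA library (exact Clopper-Pearson 95% interval 65.6 to 69.1) and 68.9% in the control siRNA library (67.0 to 70.7), with intervals that overlap. These are shares of reads, not of transcript molecules, and 3′ tag counts were not divided by transcript length.

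Among the one-carbon genes, the cytosolic serine hydroxymethyltransferase Shmt1 had the lowest ratio of the 10 enzymes. The gene lies on chromosome 11 from 60788897 to 60811265. It had 134 counts in the Pink1 siRNA library and 218 in the control siRNA library, 9.57 against 15.6 CPM. The ratio was 0.615 (0.492 to 0.766), 1.63-fold lower, and its counting interval left out 1. Among 583 genes of like level, 49 had a log2 ratio as low or lower. At a looser rule of 1.5-fold, which took 6.64% of measured genes as lower and 5.48% as higher, Shmt1 was the 1 enzyme taken.

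The mitochondrial form, Shmt2, had a ratio close to 1. Shmt2 lies on chromosome 10 from 127517123 to 127522444 and had 632 counts in the Pink1 siRNA library and 651 in the control siRNA library (ratio 0.971, interval 0.869 to 1.08). Shmt1 therefore took 17.5% of the reads of the 2 hydroxymethyltransferases in the Pink1 siRNA library (14.9 to 20.4). The share was 25.1% in the control siRNA library (22.2 to 28.1). The 2 intervals do not overlap, and the shares do not depend on how the libraries were scaled. The shares restate the ratios of Shmt1 and Shmt2, and their intervals cover counting error only. Shmt2 overlaps Ndufa4l2 by 32 bases at its 3′ end. Strand use in counting is not given, so reads of the pair may be shared; Ndufa4l2 had 65 counts in the Pink1 siRNA library and 83 in the control siRNA library.

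The other cytosolic enzyme, Mthfd1, a trifunctional folate enzyme, lies on chromosome 12 from 76254406 to 76319820. It had 387 counts in the Pink1 siRNA library and 409 in the control siRNA library (ratio 0.946, interval 0.821 to 1.09). At its 3′ end Mthfd1 shares 9980 bases with the noncoding RNA gene Gm40443, for which no counts were given. Together the cytosolic pair took 10.8% of the one-carbon reads in the Pink1 siRNA library (9.94 to 11.7) and 12.8% in the control siRNA library (11.8 to 13.7). Within the pair, Shmt1 took 25.7% of the reads in the Pink1 siRNA library (22.0 to 29.7) and 34.8% in the control siRNA library (31.0 to 38.6). These shares draw on the same Shmt1 counts as above, so they are not separate results.

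Mthfd2, the mitochondrial dehydrogenase and cyclohydrolase and a well-known stress-induced gene of the pathway, had the most reads of the 10 and nearly the same level in both libraries. It lies on chromosome 6 from 83305704 to 83326011. It had 2728 counts in the Pink1 siRNA library and 2543 in the control siRNA library, 195 against 182 CPM, with a ratio of 1.07 (1.02 to 1.13).

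Mthfd1l, the mitochondrial formate-tetrahydrofolate ligase that acts after Mthfd2, was on the other side of 1. It lies on chromosome 10 from 3972892 to 4167081 and had 942 counts in the Pink1 siRNA library and 1094 in the control siRNA library, 67.3 against 78.1 CPM (ratio 0.861, interval 0.788 to 0.940). Mthfd2 gave 74.3% of the reads of these 2 successive mitochondrial enzymes in the Pink1 siRNA library (72.9 to 75.7) and 69.9% in the control siRNA library (68.4 to 71.4). Summed over all 5 one-carbon genes, the level was 344 CPM in the Pink1 siRNA library and 351 CPM in the control siRNA library (ratio 0.981, interval 0.943 to 1.02).

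In proline synthesis, Aldh18a1 had the highest ratio of the 10 enzymes. It encodes the mitochondrial pyrroline-5-carboxylate synthase and lies on chromosome 19 from 40550257 to 40588463. It had 270 counts in the Pink1 siRNA library and 190 in the control siRNA library, 19.3 against 13.6 CPM, with a ratio of 1.42 (1.18 to 1.72). Of 583 genes of like level, 41 had a log2 ratio as high or higher. Pycr1, the mitochondrial reductase of the last step, lies on chromosome 11 from 120638998 to 120643748 and was the weakest of the 10. It had 26 counts in both libraries (1.86 CPM each), and with an interval of 0.558 to 1.79 smaller differences were not detectable at this depth.

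**Figure D2:**
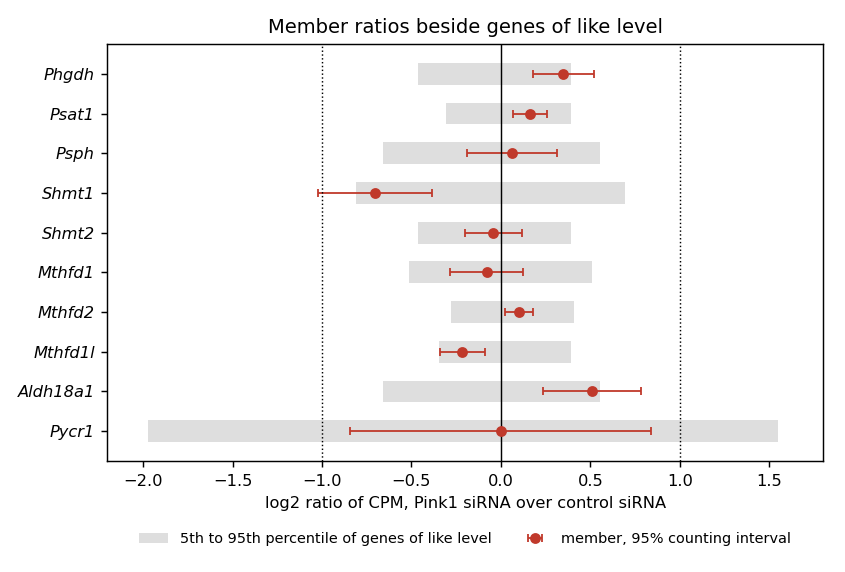
Log2 ratio of CPM, Pink1 siRNA over control siRNA, for each gene (red points) with its 95% counting interval; grey bars run between the 5th and 95th percentile of the log2 ratio among the 583 measured genes of the same twentieth of mean level, and dotted lines mark 2-fold. All 10 points lie inside their grey bars, with Shmt1, Phgdh and Aldh18a1 nearest to an edge.

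Counting intervals left 1 out for 6 of the 10 genes, above 1 for Phgdh, Psat1, Mthfd2 and Aldh18a1 and below 1 for Shmt1 and Mthfd1l. Over all measured genes the same was true of 26.2% above and 24.9% below, so intervals that leave out 1 were common at this depth. The 10 enzymes had a median of 975.5 counts over both libraries, against 762.5 for all measured genes, and intervals narrow as counts grow. The spread of single genes was wider than counting error: for genes of the level of Aldh18a1 the 5th to 95th percentile of the log2 ratio ran between -0.66 and 0.56, and Aldh18a1 was at 0.51. For genes of the level of Shmt1 it ran between -0.81 and 0.69, with Shmt1 at -0.70. All 10 genes were inside the range of their level. The ratio was above 1 for 5 genes with unequal counts and below 1 for 4, and Pycr1 had equal counts; of all measured genes, 51.1% had a ratio above 1 and 48.9% below.

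Proliferation markers matter here because folate enzymes supply nucleotide synthesis. The list was made with their values known, so its counts describe the list only. Of the 12, 9 had a counting interval below 1 and 1 above, beside 24.9% and 26.2% of all measured genes. Ratios were below 1 for 10 and above 1 for Pcna (1.19, 1.09 to 1.29) and Mcm5 (1.10, interval holding 1). None of the markers passed the rule of size. Their sum was 1046 CPM in the Pink1 siRNA library and 1232 CPM in the control siRNA library. Their part in the ratio of Shmt1 was not tested. Tyms, the thymidylate synthase gene, works with Shmt1 in thymidylate synthesis and had 445 counts in the Pink1 siRNA library and 489 in the control siRNA library, with a ratio of 0.910 and an interval that holds 1.

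The promoters of the 2 genes at either end of the range and of Pycr1 are shown because 2 of them hold the only matches, among the 10 genes, of the 2 motifs searched. The motifs were TGATGNAA, the core of the C/EBP-ATF element that ATF4 binds, and the E-box CACGTG, which MYC and related factors bind, each on both strands. RefSeq windows of 300 bases (GRCm38.p6, the assembly behind mm10, 250 bases before to 50 after a start) matched all 10 genes with 11 windows, since Psat1 has 2 starts. Capitals mark a match, and the windows are given 5′ to 3′ on the strand of the gene, which is the minus strand for all 3: Aldh18a1 at chr19:40588414-40588713, Pycr1 at chr11:120643699-120643998 and Shmt1 at chr11:60811216-60811515.
Aldh18a1: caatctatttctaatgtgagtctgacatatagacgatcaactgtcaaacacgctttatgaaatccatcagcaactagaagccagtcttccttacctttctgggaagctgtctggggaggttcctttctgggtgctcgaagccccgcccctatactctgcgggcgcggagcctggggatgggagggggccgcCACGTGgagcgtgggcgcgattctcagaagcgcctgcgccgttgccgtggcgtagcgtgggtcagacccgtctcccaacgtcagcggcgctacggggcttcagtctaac
Pycr1: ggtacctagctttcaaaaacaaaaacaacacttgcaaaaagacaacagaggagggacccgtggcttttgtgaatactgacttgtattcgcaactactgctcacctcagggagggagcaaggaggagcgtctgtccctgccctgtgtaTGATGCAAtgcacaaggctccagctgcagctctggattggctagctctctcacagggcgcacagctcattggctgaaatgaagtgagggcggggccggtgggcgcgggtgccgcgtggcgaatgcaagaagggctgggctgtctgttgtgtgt
Shmt1: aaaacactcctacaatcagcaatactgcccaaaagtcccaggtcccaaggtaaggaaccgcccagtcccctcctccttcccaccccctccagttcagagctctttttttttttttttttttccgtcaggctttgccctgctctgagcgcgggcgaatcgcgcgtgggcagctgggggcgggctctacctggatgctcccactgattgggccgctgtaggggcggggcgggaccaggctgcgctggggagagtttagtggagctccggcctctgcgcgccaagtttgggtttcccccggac
The E-box of Aldh18a1 starts 59 bases before the start site and the TGATGCAA of Pycr1 starts 103 bases before it, and the motifs do not overlap.

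TGATGNAA was in 1 of the 11 windows of the enzymes and in 2.22% of 11283 windows of measured genes. CACGTG was in 1 of the 11 and in 9.94% of those 11283 windows. For the integrated stress response list, 7 of 26 windows held TGATGNAA and 3 held CACGTG. That list was chosen as the pathway through which ATF4 acts, so its TGATGNAA matches are not a separate result. Pycr1, with the first motif, had equal counts in both libraries, and Aldh18a1, with the second, had a ratio of 1.42. Shmt1 had neither motif in this window. A match is a description of these letters only.

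The other genes of folate and glycine metabolism were spread on both sides of 1, and 0 of the 17 measured (of 22) passed the rule of size. Their median log2 ratio was -0.05, with 2 counting intervals above 1 and 5 below. Over all measured genes, intervals lay above 1 for 26.2% and below for 24.9%. The transporter Slc25a32, which brings folate into mitochondria, had 94 counts in the Pink1 siRNA library and 149 in the control siRNA library (ratio 0.631, interval 0.482 to 0.822). Of the 4 genes of the glycine cleavage system, Gldc and Gcsh had ratios below 1, Dld had a ratio above 1 and Amt was not measured. Gldc had 16 counts in the Pink1 siRNA library and 31 in the control siRNA library (ratio 0.516, 0.264 to 0.973). Gcsh had 578 counts in the Pink1 siRNA library and 771 in the control siRNA library. Its ratio of 0.750 (0.672 to 0.836) was below the 5th percentile of its level. Dld, whose product also serves other mitochondrial dehydrogenases, had 990 counts in the Pink1 siRNA library and 804 in the control siRNA library (ratio 1.23, 1.12 to 1.35), and Amt, below the count needed to be measured, had 4 counts in the Pink1 siRNA library and 0 in the control siRNA library. Mthfd2l, a mitochondrial relative of Mthfd2, had 92 counts in the Pink1 siRNA library and 54 in the control siRNA library, with a ratio of 1.70 (1.20 to 2.43) against 1.07 for Mthfd2. Unlike Gcsh, the genes Slc25a32, Gldc, Dld and Mthfd2l were inside the 5th to 95th percentile of the log2 ratio at their level. The folate carrier Slc46a1 had 66 counts in the Pink1 siRNA library and 45 in the control siRNA library, with an interval that holds 1, and its counts are uncertain because it overlaps Sarm1 by 1673 bases.

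**Figure D3:**
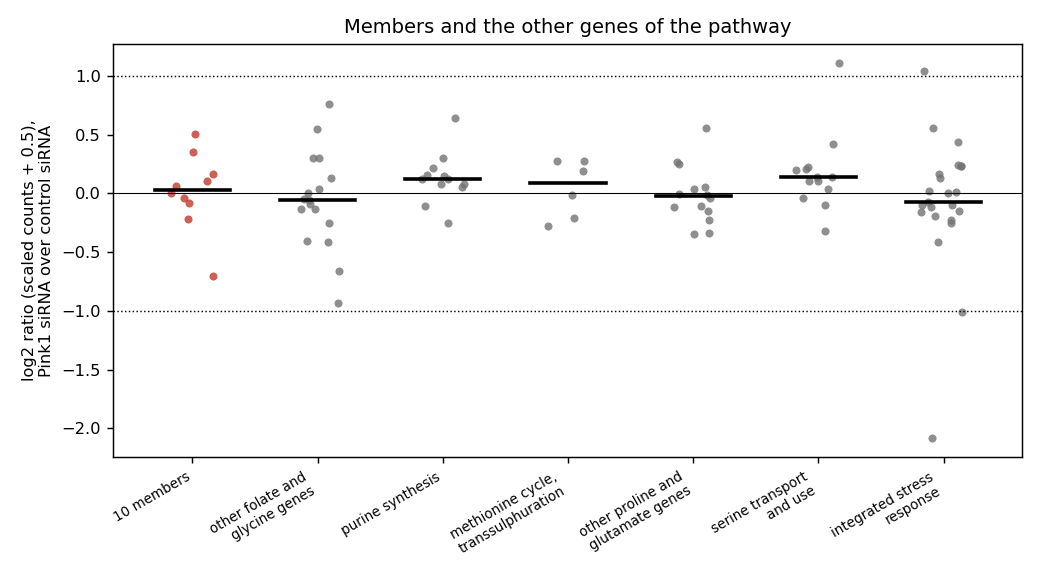
Log2 ratio (Pink1 siRNA over control siRNA) of counts scaled and raised by 0.5, for the measured genes among the 10 enzymes (red) and 6 neighbouring gene lists (grey); black bars are medians and dotted lines mark 2-fold. Medians lie between -0.08 and 0.14, and 4 grey points, Sds and Gdf15 above and Slc7a11 and Sesn2 below, pass 2-fold.

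Purine synthesis, a main user of formyl-folate, had 12 of 13 genes measured and 0 past the rule, with a median of 0.12. Ratios were above 1 for 10 of the 12, beside 51.1% of all measured genes. Counting intervals held 1 for 7, lay above 1 for 4 and below for 1, beside 26.2% above and 24.9% below over all measured genes. Adsl, adenylosuccinate lyase, had 865 counts in the Pink1 siRNA library and 556 in the control siRNA library (ratio 1.56, 1.40 to 1.73), above the 95th percentile of its level. The folate-dependent enzymes were on both sides, with Gart at 1.23 (1.11 to 1.37) and Atic at 0.839 (0.754 to 0.933). In the methionine cycle, 6 of 11 genes were measured and 0 passed the rule (median 0.09). Mat2a, the S-adenosylmethionine synthase gene, had 5295 counts in the Pink1 siRNA library and 6431 in the control siRNA library. Its ratio of 0.823 (0.794 to 0.854) was below the 5th percentile of its level. Mat2a overlaps Ggcx by 564 bases, and Ggcx had 452 counts in the Pink1 siRNA library and 464 in the control siRNA library.

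In the rest of proline and glutamate metabolism, 14 of 15 genes were measured and 0 passed the rule, with a median of -0.03. The cytosolic reductase gene Pycrl had 283 counts in the Pink1 siRNA library and 276 in the control siRNA library. Prodh, which breaks proline down, had 28 counts in the Pink1 siRNA library and 27 in the control siRNA library.

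Of the genes for serine transport and use, 13 of 15 were measured, with a median of 0.14. Sds, serine dehydratase, which breaks serine down, passed the rule as higher, with 115 counts in the Pink1 siRNA library and 53 in the control siRNA library (ratio 2.17, 1.55 to 3.06), and 0 passed as lower. Sds overlaps Plbd2 by 40 bases, and Plbd2 had 712 counts in the Pink1 siRNA library and 663 in the control siRNA library. The mitochondrial serine carrier Sfxn1 had 2965 counts in the Pink1 siRNA library and 2755 in the control siRNA library (ratio 1.08), and the plasma membrane carriers Slc1a4 and Slc1a5 had ratios of 1.10 and 1.17. The amino acid carrier Slc38a2 had 4135 counts in the Pink1 siRNA library and 5179 in the control siRNA library (ratio 0.798, 0.766 to 0.832), below the 5th percentile of its level.

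Genes of the integrated stress response, the pathway through which ATF4 acts, were spread on both sides of 1. Of 26 listed genes 23 were measured, with a median of -0.08; 1 passed the rule as higher and 2 as lower, and 7 counting intervals lay above 1 and 6 below. Over all measured genes the rule took 1.69% as higher and 2.39% as lower, and intervals lay above 1 for 26.2% and below for 24.9%, so the shares by interval are near those of all genes. Atf4 itself had 9174 counts in the Pink1 siRNA library and 7792 in the control siRNA library (ratio 1.18, 1.14 to 1.21). Of 583 genes of like level, 125 had a log2 ratio as high as or higher than that of Atf4. Among the other genes of the list, Ddit3 had 2221 counts in the Pink1 siRNA library and 2219 in the control siRNA library. Trib3 had a ratio of 0.933 with an interval that holds 1, and the asparagine synthetase gene Asns a ratio of 0.856 (0.790 to 0.928). In the whole list, 11 ratios were above 1 and 12 below. Ddit4, an inhibitor of mTORC1, had 3292 counts in the Pink1 siRNA library and 2438 in the control siRNA library. Its ratio of 1.35 (1.28 to 1.42) was above the 95th percentile of its level. The same was true of Dele1, found by a synonym, with 457 counts in the Pink1 siRNA library and 310 in the control siRNA library (ratio 1.47, 1.27 to 1.71). The stress-induced regulator Nupr1 had a ratio of 1.17 (1.09 to 1.27). Atf4, Asns and Nupr1 were inside the 5th to 95th percentile of the log2 ratio at their level. The 3 genes past the rule had few reads. The cystine carrier Slc7a11 had 14 counts in the Pink1 siRNA library and 61 in the control siRNA library, a ratio of 0.230 (0.119 to 0.415). Sesn2, a stress-induced regulator of mTORC1, had 27 counts in the Pink1 siRNA library and 55 in the control siRNA library. The secreted stress hormone Gdf15 had 52 counts in the Pink1 siRNA library and 25 in the control siRNA library. Sesn2 and Gdf15 were inside the 5th to 95th percentile of the log2 ratio at their level, and Slc7a11 was below it.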

How the data were processed

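The authors deposited 1 table of raw counts per library, with a row per gene symbol; the unit was read from the values. The tools named are bcl2fastq 2.20.0.422, bedtools and Bowtie2, and the build is mm10, per the submitters' processing notes. The annotation, the placing of multiply mapped reads and strand use are not given in the sources used here.

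Levels are CPM over effective library sizes by TMM, the trimmed mean of M values (edgeR 4.0.16, R 4.3.3), fitted on all 23282 rows. Log2 ratios are of scaled counts with 0.5 added. Ratio intervals are exact conditional binomial and level intervals exact Poisson, at 95% (SciPy 1.17.1). For a gene at 0, the floor is 3 counts (0.214 CPM). Intervals and floors cover counting error only, since reads without molecular identifiers are not independent molecules. Genes of like level are the measured genes of the same of 20 bins of mean CPM. Coordinates are from RefSeq, 1-based. The calculation was tested on simulated data with counting error only and library sizes by total counts. That test does not cover the wider spread of single genes between these libraries.

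No list was tested. The enzymes and lists were chosen with earlier results of these data known. Of the 156 listed symbols, 1 was found by a synonym. Outside the 10 enzymes, named genes were those past the rule of size, the largest log2 ratios of a list and well-known members, and some of these are not reported here. The 10 alternatives were scaling by total counts, by upper quartiles and by the median of ratios (DESeq2 1.42.0), TMM without the ribosomal precursor row Rn45s, 5 added before the log, no filter, a summed count of 200, ratios of 1.5 and 4, and no counting interval.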

Additional observations from a re-analysis of the deposited data

How the results depend on the processing

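Of the 10 enzymes, 0 passed as higher under all 10 alternatives, and 0 passed as lower under 9. With a ratio of 1.5, 1 passed as lower (Shmt1). Only the scalings and the ratio of 1.5 could have changed these counts. The rule uses the ratio without an added count, all 10 enzymes were already measured, and none differed by 2-fold. The other alternatives could therefore not add a call. No scaling or added count changed the side of 1 for an enzyme other than Pycr1, whose log2 ratio ran between -0.04 and 0.00. That of Shmt1 ran between -0.74 and -0.68 and that of Aldh18a1 between 0.46 and 0.51. Total-count scaling moved the median of all measured genes to -0.04. With a summed count of 200, Pycr1 was left out and 9 enzymes stayed. Over all genes, 197 were higher and 279 lower; the counts were 604 and 853 with no filter, 28 and 40 at a summed count of 200, 639 and 774 at a ratio of 1.5, and 29 and 47 at a ratio of 4. At a ratio of 1.5, the other folate genes had 1 higher and 2 lower and purine synthesis 1 higher. With no filter, the methionine list had 1 higher, serine transport and use 1 lower and the stress response list 4 lower. Serine transport and use had 0 higher at a summed count of 200 and at a ratio of 4. The stress response list had 0 higher and 0 lower at a summed count of 200, and 0 higher and 1 lower at a ratio of 4. No paired analysis was possible because each group had 1 library, and leaving out a replicate could not be run. Depth limits Pycr1 most, at 26 counts per library.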
